A study of Mus musculus with 6 samples.

Results

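The U1-sized spliceosomal snRNA copies are the rows of a table of mouse non-coding RNA counts that GENCODE release M21 annotates as snRNA with a transcript length within 4 bases of that of Rnu1a1, a U1 gene of 164 bases. They numbered 45 of 5880 transcripts and were 9.30% of the 484 snRNA transcripts in the table. Members were chosen by annotation and length, not by level. Small RNA was sequenced from exosomes, the small vesicles that cells release, isolated from the medium of 2 kinds of culture. The UD-P19 group (replicates 1 to 3) came from undifferentiated P19 cells, a mouse embryonal carcinoma line kept without serum while vesicles were collected. The P19N group (replicates 4, 5 and 6) came from neurons made from the same line with retinoic acid, grown in neuronal medium with B27 and N2 supplements and treated with 5-fluorouridine and uridine against dividing cells, and its cultures were 8, 10 and 12 days old, with 1 library at each age. Culture age and replicate cannot be told apart. Neither genotype nor a drug treatment separated the groups beyond this protocol, and all libraries derive from 1 cell line. The labels call the preparations biological replicates, but medium was collected repeatedly from P19N cultures, so p-values measure only the spread between these preparations, part of which may be technical.

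U1 snRNA is the RNA of the U1 particle, which opens the assembly of the spliceosome by pairing its 5′ end with the 5′ splice site of a pre-mRNA. The loop of its stem-loop I binds the U1-70K protein, the loop of stem-loop II binds another protein of the particle, and the Sm site binds the ring of Sm proteins. In mouse, the a-type of U1 is the form of all tissues, while the b-type, with other bases in and beside the loop of stem-loop II, is known as the embryonic form and is also found in stem cells. The genome holds many U1 gene copies and many diverged copies that are usually regarded as pseudogenes.

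The sequences below carry the comparison of variants, and come from the GENCODE M21 transcripts of GRCm38. In Rnu1a1, the a-type reference, capitals mark in order the bases that pair with the 5′ splice site (ACTTACCT), the loop of stem-loop II with its flank (ATTGCACTCC) and the Sm site (AATTTGTGG). In the other copies, capitals mark each base that differs from Rnu1a1 or is inserted. Gm25890 and Rnu1b2 show the b-type, Gm26232 and Gm24136 are b-type copies with further changes, and Gm22513, Gm25189 and Gm23686 are the 3 copies with the most unique counts, reads that matched no other transcript.
Rnu1a1: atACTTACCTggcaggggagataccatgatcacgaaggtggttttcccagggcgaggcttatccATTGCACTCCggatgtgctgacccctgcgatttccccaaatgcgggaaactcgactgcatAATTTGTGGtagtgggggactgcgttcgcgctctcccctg
Gm25890: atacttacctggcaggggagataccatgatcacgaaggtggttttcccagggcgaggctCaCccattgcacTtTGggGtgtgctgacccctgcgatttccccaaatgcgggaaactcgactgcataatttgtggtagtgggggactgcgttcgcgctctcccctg
Rnu1b2: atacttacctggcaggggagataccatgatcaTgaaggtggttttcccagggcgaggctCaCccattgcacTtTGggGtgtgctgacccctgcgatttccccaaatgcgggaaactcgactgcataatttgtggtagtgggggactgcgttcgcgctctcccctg
Gm26232: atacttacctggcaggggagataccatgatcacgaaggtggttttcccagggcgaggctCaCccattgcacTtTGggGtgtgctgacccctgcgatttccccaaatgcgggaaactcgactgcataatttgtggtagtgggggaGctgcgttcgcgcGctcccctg
Gm24136: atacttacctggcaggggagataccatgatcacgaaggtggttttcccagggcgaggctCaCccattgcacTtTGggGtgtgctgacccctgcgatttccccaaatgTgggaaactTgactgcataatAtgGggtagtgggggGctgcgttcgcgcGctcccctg
Gm22513: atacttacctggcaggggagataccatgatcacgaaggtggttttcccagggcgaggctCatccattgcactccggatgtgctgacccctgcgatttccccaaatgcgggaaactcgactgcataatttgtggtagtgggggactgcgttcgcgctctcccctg
Gm25189: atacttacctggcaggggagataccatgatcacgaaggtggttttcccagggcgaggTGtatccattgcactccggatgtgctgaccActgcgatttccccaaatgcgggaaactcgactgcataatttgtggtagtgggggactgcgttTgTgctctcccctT
Gm23686: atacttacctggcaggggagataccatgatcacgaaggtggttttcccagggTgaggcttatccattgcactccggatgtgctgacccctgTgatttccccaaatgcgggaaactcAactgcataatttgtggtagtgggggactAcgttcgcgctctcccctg

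The copies fell into 35 distinct sequences. Of the 45 members, 14 shared their whole sequence with another member, in 4 groups. Rnu1a1 was 1 of 7 identical copies, with Gm22068, Gm25679, Gm22317, Gm22634, Gm23804 and Gm26444. Gm25890 was identical to Gm22614, Rnu1b1 to Rnu1b2, and Gm26232 to Gm24830 and Rnu1b6. Between Gm25890 and Rnu1b2 the single difference was C33T, counted from 1 at the 5′ end, in the loop of stem-loop I. From Rnu1a1 to Gm25890 there were the substitutions T60C, T62C, C73T, C74G and A77G and 1 inserted base. Gm22513 differed from Rnu1a1 by T60C alone and Gm24305 by A26G alone, while Gm22042 differed from Gm25890 by T22C alone.

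Copies with many counts lay in clusters. On chr3:96328425-96488893 of GRCm38 lay 8 of them, all with the b-type loop (Gm24830, Rnu1b1, Rnu1b2, Gm24136, Gm26232, Rnu1b6, Gm25890 and Gm22614). A cluster of 7 copies on chr12:54696782-54738622 held 6 with the a-type loop and Gm22513. Rnu1a1 and Gm22068 lay within 4013 bases of each other on chr11:87422867-87426879. Each of these transcripts is annotated as the snRNA gene itself. Outside the clusters were Gm26110 on chromosome 1, Gm25189 on chromosome 2, Gm22042 on chromosome 4, Gm23238 on chromosome 19, and Gm26244 and Gm24924.

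Counts summed to between 454499 and 887460 in a library, and unique counts, taken as reads that matched 1 transcript only, to between 226444 and 594544. By composition UD-P19 replicate 2 stood apart from the other UD-P19 libraries in several of the variant comparisons, and several results that rest on it are given with and without it. The table listed 5 of 13 hairpins of pluripotent cells (the miR-290 and miR-302 clusters), with 2, 8 and 1 counts in UD-P19 and 0, 0 and 1 in P19N, and 5 of 7 neural entries (miR-9 and miR-124), with 0, 1 and 2 counts in UD-P19 and 12, 11 and 5 in P19N. These sums go the way of the labels at very low counts, and no hairpin of the oligodendrocyte (0 of 3) or muscle (0 of 4) lists was in the table.

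U1-sized copies took a far larger part of the P19N libraries. They held 2.79%, 3.22% and 1.77% of all counts in UD-P19 replicates 1, 2 and 3, and 43.9%, 42.4% and 42.1% in P19N replicates 4, 5 and 6. The groups did not overlap. The mean was 2.59% ± 0.741 in UD-P19 and 42.8% ± 0.932 in P19N (SD, n = 3 each; p = 0.1 in an exact permutation test on both sides, the lowest that 3 against 3 libraries allow, and adjusted p = 0.1 over 6 comparisons of the U1-sized copies as a whole). In reads this was 12659, 22680 and 13526 counts against 389334, 322315 and 248095. A share says how a library is divided, and more U1 per vesicle cannot be told apart from less of the other RNAs. A single transcript, Gm42418, took many counts in UD-P19, and without it in the denominator the shares were 6.17% ± 0.895 and 51.6% ± 0.996 (n = 3 each).

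Unique counts gave the same order at a much lower level, since most U1 reads match several copies. Of 1008609 U1-sized counts, 5465 (0.542%) were unique. They were 0.0151%, 0.0386% and 0.0103% of the unique counts of the UD-P19 libraries and 0.807%, 0.707% and 0.476% of those of the P19N libraries, without overlap (exact permutation test p = 0.1, n = 3 each). Without Gm42418 in the denominator the means were 0.110% ± 0.0648 and 1.32% ± 0.371 (SD, n = 3 each). The part of U1-sized counts that was unique ranged from 0.403% to 0.745% in UD-P19 and from 0.435% to 0.612% in P19N, and these ranges overlapped.

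**Figure D1:**
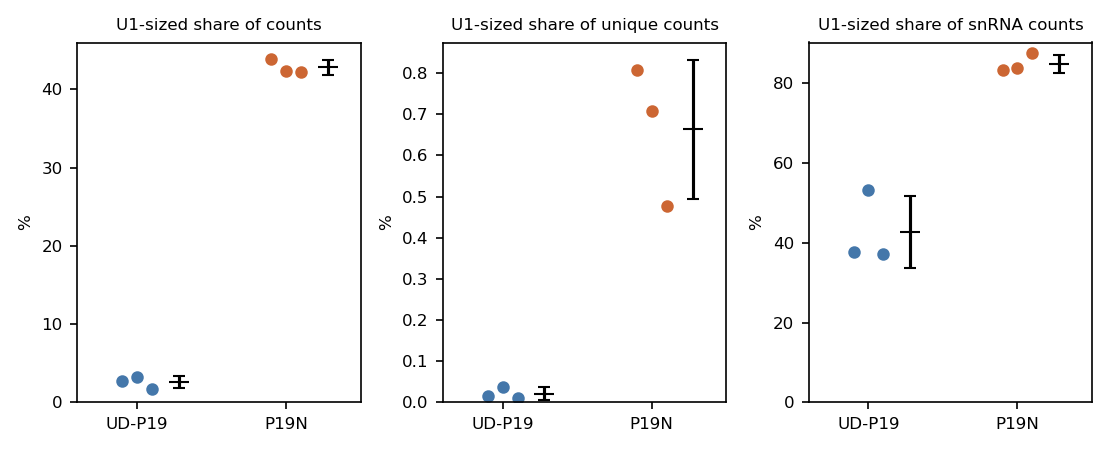
U1-sized copies as a percent of all counts (left), of unique counts (middle) and of snRNA counts (right), with 1 point per library and the mean ± SD of 3 libraries beside the points. In each panel all P19N points lie above all UD-P19 points: 42.1% to 43.9% against 1.77% to 3.22% on the left.

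U1-sized counts were also higher relative to the other spliceosomal snRNAs. U2 pairs with the branch point, U4, U5 and U6 join as the tri-snRNP, and all were sorted here by transcript length. The U1-sized share of snRNA counts was 37.7%, 53.1% and 37.3% in UD-P19 and 83.2%, 83.7% and 87.4% in P19N, without overlap (exact permutation test p = 0.1, n = 3 each). Rnu7, the U7 snRNA of histone pre-mRNA processing and not a spliceosomal RNA, held 34.1%, 19.9% and 37.2% of snRNA counts in UD-P19 against 5.75%, 5.06% and 4.70% in P19N. Without Rnu7 the U1-sized shares were 57.3%, 66.3% and 59.3% in UD-P19 and 88.2%, 88.1% and 91.7% in P19N, still without overlap. On unique counts the U1-sized share of snRNA counts was 0.326%, 1.18% and 0.360% in UD-P19 and 6.31%, 6.27% and 5.65% in P19N. The means were 0.623% ± 0.486 and 6.08% ± 0.372 (SD, n = 3 each), and UD-P19 replicate 2 raised the UD-P19 mean.

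The log2 ratio of U1-sized to U2-sized counts was 1.53, 2.80 and 1.66 in UD-P19 and 3.51, 3.45 and 4.18 in P19N. All P19N ratios lay above all UD-P19 ratios, by 1.72 on the log2 scale between the means (exact permutation test p = 0.1, n = 3 each). On unique counts the log2 ratio was -2.87, -0.79 and -2.47 in UD-P19, where U2-sized counts exceeded U1-sized ones. In P19N it was 0.58, 0.11 and 0.54. The means were -2.04 in UD-P19 and 0.41 in P19N, and UD-P19 replicate 2 raised the UD-P19 mean. The log2 ratio of U1-sized to U6-sized counts was 5.70, 4.21 and 5.23 in UD-P19 and 7.29, 7.37 and 8.36 in P19N, again without overlap (p = 0.1 by the same exact test). The highest UD-P19 ratio to U2 and the lowest to U6 were both in UD-P19 replicate 2.

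Each transcript was then tested with edgeR's quasi-likelihood test on the counts, over the 1286 transcripts that reached 15 counts in all. Of the 45 members, 37 were tested, 2 had between 1 and 14 counts and 6 were at 0 in every library. In P19N, 33 of the 37 were higher (adjusted p up to 0.05), 0 were lower and 4 were not called, where 15% of all tested transcripts were called higher and 9.02% lower. Calls in either direction over all transcripts numbered 309 of 1286, but 533 of 1145 without UD-P19 replicate 2 (35 of 36 U1-sized copies higher) and 199 of 1160 without P19N replicate 4 (31 of 36). The groups did not overlap for 35 of the 37, against 25.2% of all tested transcripts that lay higher in P19N without overlap. The median log2 fold change of the 37 was 3.85, from 0.53 to 6.22, beside 0.21 over all tested transcripts, and it was 3.84 with Gm23510, at 0 in UD-P19, set to its lower bound. A copy that passes the minimum through P19N counts alone could hardly be lower, so the count says little of the rarest copies. Copies of identical or near-identical sequence share reads, so the 33 calls are not separate measurements.

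By the same test all 13 tested U2-sized copies were higher, with a median log2 fold change of 2.25. On unique counts 5 U2-sized copies were tested, of which 2 were higher, 0 lower and 3 not called, from -1.27 to 4.31 on the log2 scale. Of 15 U4-sized transcripts 7 were higher and 0 lower, and of 10 U5-sized ones 2 were higher and 1 lower. Of 124 U6-sized transcripts 5 were higher, 1 was lower and 118 were not called, at totals of at most 172 counts each. Of these 124, 33 lay higher in P19N without overlap, and the median log2 fold change of the 124 was 1.33. Over all tested transcripts, 15% were called higher and 25.2% lay higher without overlap. Whether the classes differ from each other was not tested copy by copy.

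**Figure D2:**
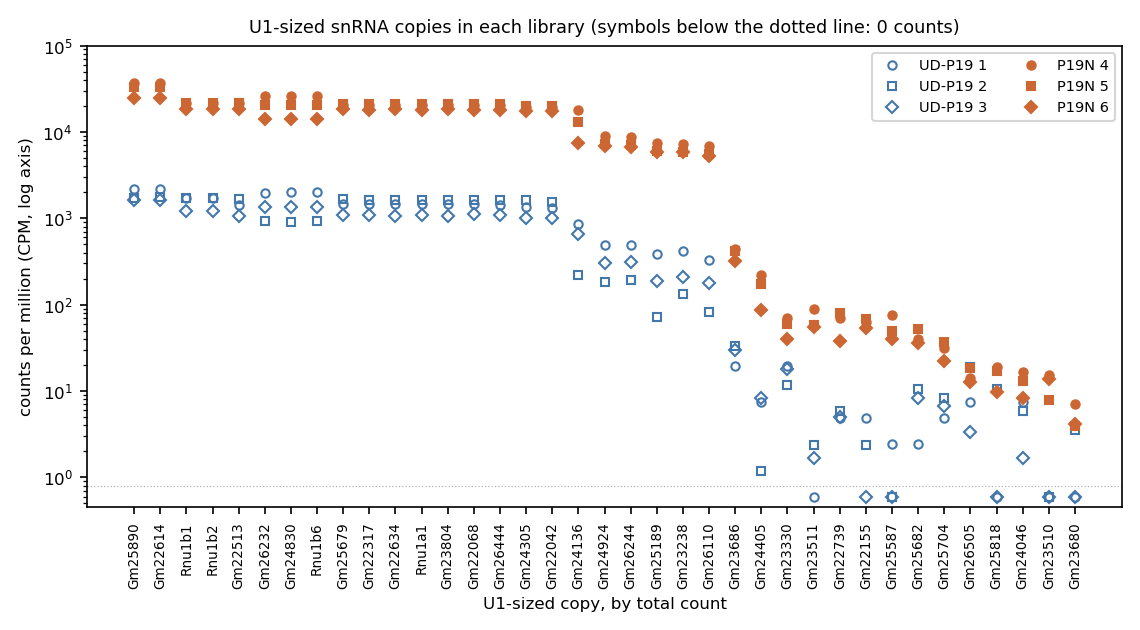
CPM (counts scaled to the size of the library) on a log axis for each of the 37 tested U1-sized copies in each library, from the highest total count (left) to the lowest. Open blue symbols are UD-P19 and filled orange symbols P19N. The 23 copies on the left form a step that is separate from the rest, and P19N lies above UD-P19 in every copy but Gm26505 and Gm25818.

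Counts separated the members into high-count and low-count copies. The 23 high-count copies had between 14074 and 76997 counts over the 6 libraries and together 99.8% of the U1-sized counts, while the other 22 had at most 969 each. The limit between them, 10000 counts, was set after the values were seen. All 23 high-count copies carry ACTTACCT at the 5′ end, against 9 of the 22 low-count ones. The Sm site letters AATTTGTGG are in 22 of the 23, the exception being Gm24136. Identity to Rnu1a1 was at least 92.7% (median 97.6%) among high-count copies and 74.0% to 97.6% (median 88.4%) among low-count copies, and the 6 copies without a count had 74.0% to 87.8%.

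The letters searched were found in most U1-sized transcripts and in fewer other snRNAs. ACTTACCT, searched on both strands as were the others, was in 32 of the 45 members and in 1.82% of the 439 other snRNA transcripts. The loop letters ATTGCAC, which lie within ATTGCACTCC, were in 40 members and in 2.73% of the others, and AATTTGTGG was in 36 members and in 2.28%. Among the 39 other transcripts of 150 to 180 bases, of any RNA class and the nearest in length, the shares were 12.8%, 15.4% and 7.69% for the same letters. No member held any of them on the reverse strand. Among snRNAs of other lengths, 9 held ACTTACCT or ATTGCACTCC, and the highest of these, Gm23240 of 121 bases, had 2822 counts.

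The a-type reference Rnu1a1 had 598, 1374 and 655 counts in UD-P19 and 17519, 16048 and 12973 in P19N. The lowest P19N library stood far above the highest UD-P19 library. The log2 fold change was 3.84 (SE 0.337, adjusted p = 5.57e-07 by edgeR's quasi-likelihood test), a 14.3-fold difference. The 6 copies of the same sequence, Gm22068 among them, are the same measurement: the 7 held between 17469 and 17542 counts in P19N replicate 4 and between 576 and 599 in UD-P19 replicate 1, and their log2 fold changes lay between 3.84 and 3.86. None of the 7 had a unique count.

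Gm25890, a b-type copy, had the highest counts of any member, with 884, 1462 and 981 in UD-P19 and 31221, 24893 and 17556 in P19N. Its groups did not overlap, and its log2 fold change of 4.09 (SE 0.336, adjusted p = 5.57e-07, edgeR) was shared by its identical copy Gm22614 (4.09). In the same cluster Rnu1b2 had 696, 1429 and 727 counts in UD-P19 and 18446, 16461 and 13158 in P19N. This was again without overlap, at a log2 fold change of 3.75 (SE 0.334, adjusted p = 5.66e-07, edgeR), and Rnu1b1 of identical sequence had 3.73. In P19N replicate 4 Gm25890 thus held 1.69 times the counts of Rnu1b2, from which it differs by 1 base, and in UD-P19 replicate 2 only 1.02 times.

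That ratio of Gm25890 to Rnu1b2 was 1.27, 1.02 and 1.35 in UD-P19 and 1.69, 1.51 and 1.33 in P19N. The groups overlapped (exact two-sided permutation test p = 0.2, n = 3 each). The ratio of Rnu1b2 to Rnu1a1 was 1.16, 1.04 and 1.11 in UD-P19 and 1.05, 1.03 and 1.01 in P19N, with overlap as well. These copies hold 164 or 165 bases, so their counts can be set side by side without scaling for length. Counts over the 6 libraries were 46433 at Gm24305 (1 copy), 50917 at Rnu1b2 (2 copies) and 49167 at Rnu1a1 (7 copies), but 76997 at Gm25890 (2 copies) and 31067 at Gm24136. No other member shares the whole sequence of Gm24136, yet its unique counts were 0 in every library. How a read that matched several copies was divided among them is not stated in the sources used here.

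Gm22042, the b-type copy on chromosome 4, had 540, 1312 and 615 counts in UD-P19 and 16301, 15116 and 12380 in P19N, and it rose by 3.86 on the log2 scale (SE 0.339, adjusted p = 5.57e-07, edgeR). Its counts were 0.903, 0.955 and 0.939 of those of Rnu1a1 in UD-P19 and 0.930, 0.942 and 0.954 in P19N, and the groups overlapped. Gm22513 and Gm24305, a single base away from Rnu1a1, rose by 3.89 and 3.83 (adjusted p = 5.57e-07 and 5.66e-07, edgeR).

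Gm26232, with 2 more changes after the Sm site than Gm25890 (T157G and 1 inserted base), had 788, 774 and 825 counts in UD-P19 and 22370, 15480 and 10015 in P19N. Scaled to library size these were 1935, 917 and 1365 CPM in UD-P19, lowest in replicate 2, and the groups did not overlap. The P19N libraries were lower at each later culture age, with 1 library at each. Its log2 fold change was 3.85 (SE 0.393, adjusted p = 2.46e-06, edgeR), and its identical copies Rnu1b6 and Gm24830 had 3.82 and 3.83. Gm24136, the b-type copy that also lacks the Sm site letters (T129A and T132G from Gm25890), had 347, 185 and 402 counts in UD-P19 and 15042, 9832 and 5259 in P19N. Its groups did not overlap either, at a log2 fold change of 4.46 (SE 0.513, adjusted p = 9.36e-06, edgeR).

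**Figure D3:**
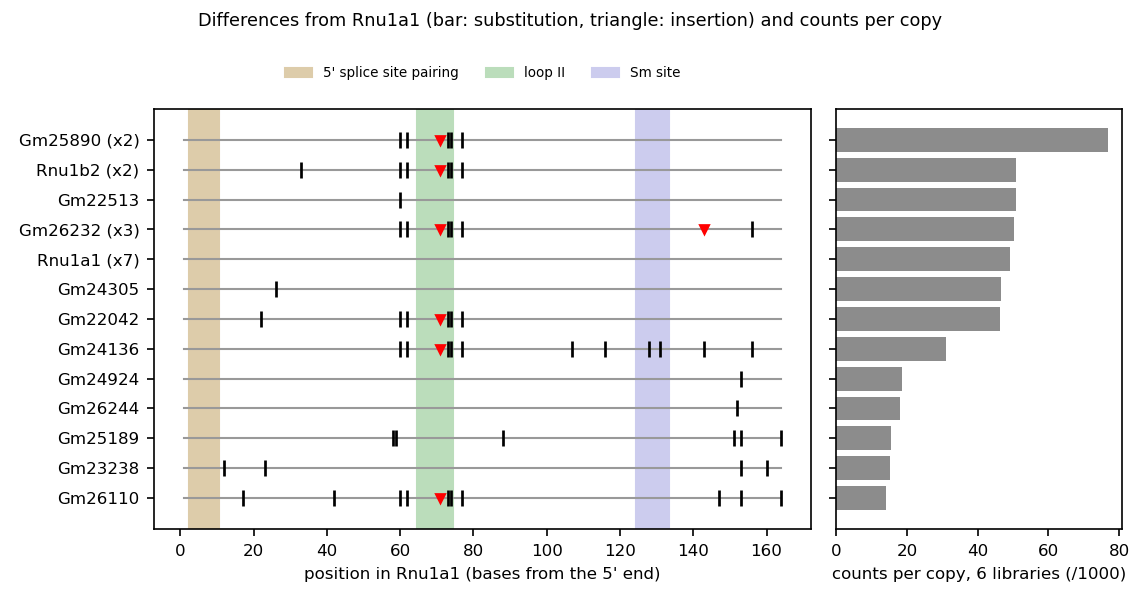
Left, the position of each difference from Rnu1a1 along the 13 distinct high-count sequences (black bar, substitution; red triangle, insertion), with the number of identical copies after the symbol and 3 elements of U1 shaded. Right, the counts per copy over the 6 libraries. The 7 sequences at the top, of which Gm26232 alone differs from Rnu1a1 after the Sm site, lie at or above 46264 counts a copy, and the 6 at the bottom, which all differ there, lie at or below 31067.

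Counts per copy went with where a copy differs from Rnu1a1, a grouping made after the values were seen and therefore given without a test. The 14 high-count copies with no difference after the Sm site (position 133 of Rnu1a1) had 46264 to 76997 counts each and log2 fold changes of 3.73 to 4.09. The 3 copies of the Gm26232 sequence, which do differ there, had 50134 to 50252 and 3.82 to 3.85. The other 6 copies that differ there (Gm24136, Gm24924, Gm26244, Gm25189, Gm23238 and Gm26110) had 14074 to 31067 counts and log2 fold changes of 4.46 to 4.92. Gm24924 and Gm26244 differ from Rnu1a1 by C153T alone and by G152C alone.

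Those 6 copies were all called higher. Gm26110 had 134, 69 and 107 counts in UD-P19 and 5843, 4140 and 3781 in P19N, a log2 fold change of 4.92 (SE 0.499, adjusted p = 2.42e-06, edgeR), and Gm25189 had 390.5, 72.3 and 187 CPM against 7439.7, 5970.1 and 5852, a log2 fold change of 4.90. Gm23238 had 172, 112 and 127 against 6165, 4458 and 4175 (4.64), Gm24924 198, 155 and 184 against 7550, 5474 and 4883 (4.56), and Gm26244 200, 161 and 187 against 7403, 5300 and 4737 (4.50). In all of them UD-P19 replicate 2 held the fewest counts although it had more U1-sized counts than either other UD-P19 library. Together the 6 made up 9.56%, 3.28% and 8.28% of U1-sized counts in UD-P19 and 12.4%, 10.5% and 10.9% in P19N. The groups did not overlap, with a difference between means of 4.22 percentage points, or 2.34 without UD-P19 replicate 2. The Gm26232 sequence, which also differs after the Sm site, is not in this sum. Its share was 19.1%, 10.3% and 18.3% in UD-P19 and 17.2%, 14.4% and 12.1% in P19N, and with it added the groups overlapped. The set of 6 was formed after the values were seen, so its lack of overlap is a description.

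The variants were compared with each other by their share of the U1-sized counts of each library, over 21 distinct sequences. The a-type reference sequence (7 copies) held 32.8%, 42.5% and 34.0% in UD-P19 and 31.5%, 34.8% and 36.7% in P19N, with overlap. The Gm26232 sequence (3 copies) held 19.1%, 10.3% and 18.3% in UD-P19 and 17.2%, 14.4% and 12.1% in P19N, also with overlap. In UD-P19 replicate 2 the first was highest and the second lowest of all libraries.

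The Rnu1b2 sequence held 11.1%, 12.6% and 10.8% in UD-P19 and 9.49%, 10.2% and 10.6% in P19N. All P19N shares lay below all UD-P19 shares, with a difference between the means of -1.41 percentage points (exact two-sided permutation test p = 0.1, adjusted p = 0.233 over the 21 sequences, n = 3 each), or -0.847 without UD-P19 replicate 2. The Gm25890 sequence held 13.9%, 12.9% and 14.5% against 16.0%, 15.4% and 14.2%, with overlap (p = 0.2 and adjusted p = 0.35 by the same exact test). Of the 21 sequences, 9 did not overlap between the groups, 7 with the higher share in P19N (Gm24924, Gm26244, Gm25189, Gm23238 and Gm26110 among the high-count ones, and Gm23511 and Gm25587) and 2 with the lower (Rnu1b2 and Gm23330). With no difference, a sequence would lie without overlap with a probability of 0.1 by the same exact test. The shares depend on each other, and the tally was not compared with other transcripts, so it is a description. No sequence passed an adjusted p of 0.05, which 3 against 3 libraries cannot reach, so neither a difference nor its absence is shown.

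The share of the embryonic-type copies as a set overlapped between the groups. The 10 copies with the b-type loop, all of them high-count copies, held 52.2%, 42.7% and 51.9% of U1-sized counts in UD-P19 and 52.3%, 49.0% and 45.5% in P19N. The means were 48.9% ± 5.39 and 48.9% ± 3.41 (SD, n = 3 each), and the ranges overlapped. Only 0.542% of U1-sized counts were unique, and how shared reads were divided among copies is not stated. The share of these copies therefore need not measure b-type RNA, and neither a difference nor its absence is shown. The log2 fold changes of these 10 copies ran from 3.73 to 4.92 and those of the 11 high-count copies with the a-type loop from 3.83 to 4.64.

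**Figure D4:**
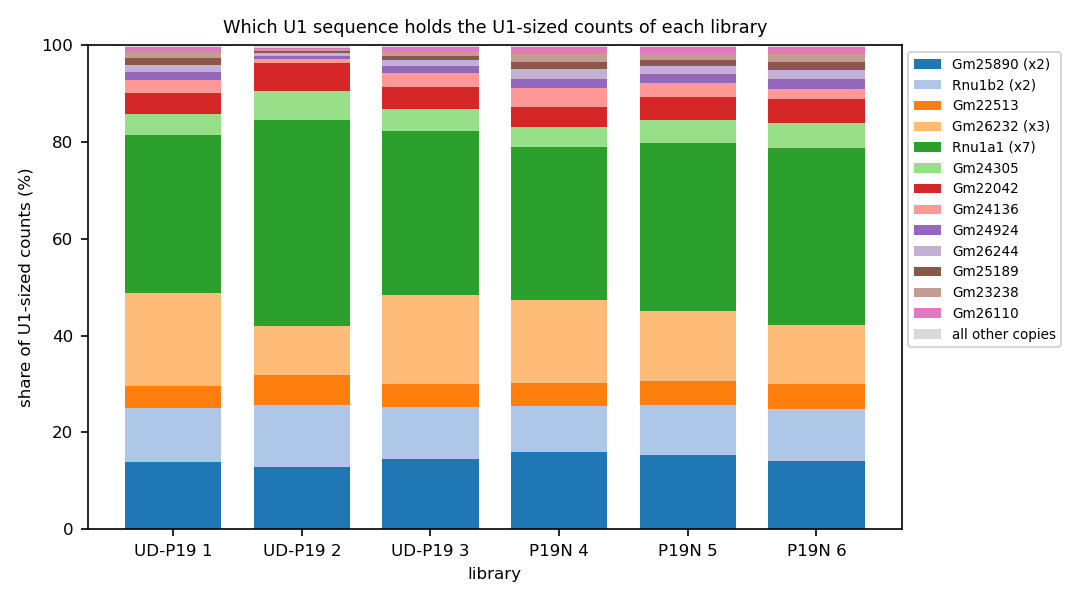
Percent of the U1-sized counts of each library (bars) held by each high-count sequence, with the number of identical copies in parentheses. The Rnu1a1 sequence is the largest part of every library, at 31.5% to 42.5%, and UD-P19 replicate 2 differs from the other libraries by its larger Rnu1a1 part and smaller Gm26232 part.

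Unique counts, reads matched to a single copy, could be tested for 16 members with at least 15. Of the others, 7 had between 1 and 14 and 22 had 0, and of these 22 members 16 had counts that were all shared. Of the 16, 15 were higher in P19N and 0 lower by edgeR's quasi-likelihood test on unique counts, where 14.3% of the 510 transcripts tested were called higher and 10.6% lower. The exception was Gm25818 (adjusted p = 0.615). A unique read may still hold a mismatch: Gm23238 had 25 unique counts, of which 4 were unique exact. On unique exact counts, read as unique and without a mismatch, 14 of 15 tested copies were higher and 0 lower. Of the 16, 11 had fewer than 15 unique counts over the UD-P19 libraries and passed the minimum through P19N, so they could hardly have come out lower and the count is a description. The median log2 fold change was 4.60, or 4.34 with Gm23330 at its lower bound, beside -0.05 over all transcripts tested on unique counts. The b-type copies Gm25890, Rnu1b2, Gm26232 and Gm24136 were not among the 16, so that no unique read speaks for any copy of the chromosome 3 cluster.

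Gm22513 had the most unique counts, with 21, 80 and 22 in UD-P19 and 801, 487 and 252 in P19N. Its groups did not overlap, and the log2 fold change on unique counts was 3.34 (SE 0.569, adjusted p = 0.0017, edgeR), beside 3.89 on all counts. Gm25189 had 8, 7 and 5 unique counts against 321, 232 and 144, a log2 fold change of 4.78 (SE 0.482, adjusted p = 0.000127, edgeR). The b-type copy Gm22042 had 2, 1 and 5 against 186, 103 and 47, again without overlap, and rose by 5.03 (SE 0.647, adjusted p = 0.000468, edgeR).

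Among the unique U1-sized counts Gm22513 alone held 41.2%, 47.3% and 36.1% in UD-P19 and 33.6%, 28.2% and 23.4% in P19N. Its share lay lower in all P19N libraries (exact permutation test p = 0.1, adjusted p = 0.533 over 16 copies, n = 3 each). Gm24924 and Gm26110 had 2, 18 and 8 and 4, 17 and 0 unique counts in UD-P19, highest in replicate 2, whereas their total counts were lowest there. In P19N they had 134 to 169 and 130 to 230, above all UD-P19 libraries.

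**Figure D5:**
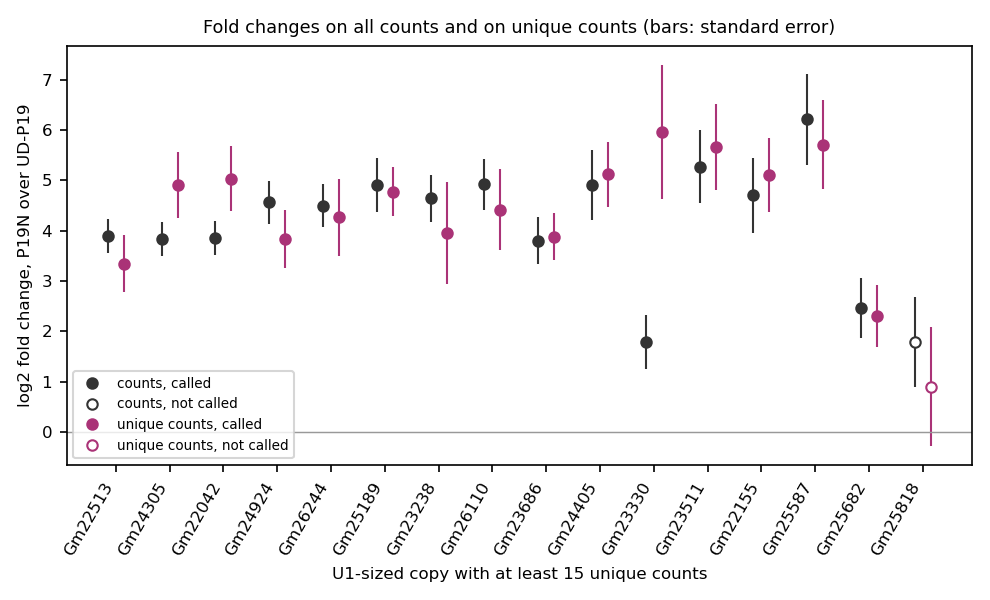
Log2 fold change of P19N over UD-P19 with its standard error for the 16 U1-sized copies tested on unique counts (purple), beside the value on all counts (black). Filled points were called. All but Gm25818 were called on both scales, and the values differ most for Gm23330, at 1.79 on counts and 5.96 on unique counts, the latter a fitted value against 0 unique counts in UD-P19 that is no bound.

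Of the 22 diverged, low-count copies, 14 were tested and 10 of these were higher, beside the 15% of all tested transcripts called higher. Several, such as Gm23510, Gm25587 and Gm23511, reached the minimum through P19N alone and could not have been called lower, so this count is a description. Gm23686 differs from Rnu1a1 at 4 positions (C53T, C92T, G117A and G146A) and had 8, 28 and 18 counts in UD-P19 and 373, 312 and 230 in P19N. Unique counts made up 62.5% to 72.2% of its counts in UD-P19 and 68.6% to 77.4% in P19N, and these ranges overlapped. Its counts and its unique counts did not overlap between the groups. Its log2 fold change was 3.80 (SE 0.467, adjusted p = 1.96e-05, edgeR) on counts and 3.88 on unique counts (5, 20 and 13 against 265, 214 and 178).

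Gm24405 had 3, 1 and 5 counts in UD-P19 and 187, 130 and 62 in P19N, a log2 fold change of 4.90 (SE 0.696, adjusted p = 0.000101, edgeR). Gm22155 had 2, 2 and 0 against 54, 52 and 38 (4.70), and Gm22739 2, 5 and 3 against 59, 60 and 27 (3.50). All of these were without overlap. Gm23511 had 3 counts in all of UD-P19 and 76, 44 and 39 in P19N, a 42.4-fold ratio with an exact 95% counting interval from 14.2 to 208, and Gm25587 had 1 and 130, a 104-fold ratio with an interval from 18.3 to 4135. Gm23510 had 0 counts in UD-P19 and 29 in P19N, at least 7.73-fold higher against a floor of 3 counts over the UD-P19 libraries. The intervals cover counting error only. In the exact column, read as reads without a mismatch, Gm23510 had 0 counts in every library. Its 12 unique counts held 0 exact ones as well. Whether its reads came from this copy was not tested. Over the alternatives, the log2 fold change of Gm22155 ranged from 3.93 to 5.11. That of Gm23511 ranged from 4.66 to 6.02 (5.27 with all libraries) and that of Gm25587 from 5.55 to 8.27 (6.22). These extremes came from leaving out single UD-P19 libraries. The 8.27, without UD-P19 replicate 1, is a fitted value against 0 counts and is no bound.

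Smaller changes were found at Gm25682, with 1, 9 and 5 counts against 34, 39 and 26, and at Gm23330, with 8, 10 and 11 against 59, 45 and 29. Their log2 fold changes were 2.46 (SE 0.596, adjusted p = 0.0068, edgeR) and 1.79 (SE 0.53, adjusted p = 0.021, edgeR). Neither overlapped between groups. The call of Gm23330 was lost under 7 alternatives, among them without P19N replicate 4 (adjusted p = 0.117, edgeR), and that of Gm25682 without P19N replicate 5 (adjusted p = 0.0514, edgeR). On unique counts Gm23330 had 0 in all of UD-P19 and was at least 7.31-fold higher in P19N, against 3 counts over the UD-P19 libraries.

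The 4 tested copies that were not called by edgeR's quasi-likelihood test were Gm25818, Gm24046, Gm23680 and Gm26505, with totals of 45, 39, 15 and 56 counts. Gm25818 had 0, 9 and 0 counts in UD-P19 and 16, 13 and 7 in P19N (log2 fold change 1.79, adjusted p = 0.153, edgeR), and Gm26505 had 3, 16 and 2 against 12, 14 and 9 (0.53, adjusted p = 0.582, edgeR). In both, UD-P19 replicate 2 overlapped P19N and held most of the UD-P19 counts. Without that library both were called higher by edgeR, Gm26505 at 1.73 and Gm25818 at a fitted 6.43 that is no bound, since its other UD-P19 libraries were at 0. Without UD-P19 replicate 1 or 3 Gm25818 was at 1.09 and 0.96 (adjusted p = 0.389 and 0.461, edgeR). Gm24046 and Gm23680 had log2 fold changes of 1.36 and 1.64 (adjusted p = 0.176 and 0.276, edgeR). Over the alternatives these ranged from 0.72 to 1.79 and from 0.87 to 1.68, both lowest without UD-P19 replicate 3.

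Joining copies of identical sequence to 1 row gave 27 tested sequences, of which 23 were higher and 0 lower by edgeR's quasi-likelihood test, where 11.8% of 1092 sequences were called higher and 11.5% lower. The log2 fold change was then 3.68 for the a-type reference sequence, 3.95 for Gm25890, 3.58 for Rnu1b2 and 3.72 for Gm26232. Near-identical sequences stayed in separate rows, and only 0.542% of U1-sized counts were unique. The 23 calls are therefore not separate measurements, and their number is a description.

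The exact column, read as counts of reads without a mismatch, held 76.8%, 71.7% and 77.9% of U1-sized counts in UD-P19 and 79.5%, 78.3% and 79.4% in P19N. The groups did not overlap (exact permutation test p = 0.1, n = 3 each), by 3.60 percentage points between the means and by 1.71 without UD-P19 replicate 2. In the other snRNAs the shares were 68.6%, 62.6% and 73.5% against 76.7%, 77.2% and 76.3%, also without overlap. In all transcripts outside the U1-sized ones they overlapped, from 43.3% to 60.1% against 43.7% to 53.5%.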

How the data were processed

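Small RNA libraries of exosomes from UD-P19 and P19N cultures, 3 per group, were made with a small RNA kit and sequenced as read pairs. The authors trimmed and joined the pairs and used CLC Genomics Workbench to match them to the Ensembl non-coding RNAs of GRCm38, and the deposited values are counts per transcript without normalization, with further columns named unique, exact and unique exact. The headers of these columns also carry the word mature, and the columns are not defined in the sources used here. Unique was read as matching 1 transcript only, which was checked on identical copies (0 unique counts), and exact as matching without a mismatch, which was not checked. How shared reads were divided between copies is not stated.

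Identifiers were joined to GENCODE M21 (5773 of 5880 matched, 107 not). Those with 15 or more counts in all were tested with edgeR 4.0.16 in R 4.3.3 (quasi-likelihood F test, TMM, Benjamini-Hochberg over all transcripts tested, called where the adjusted p did not exceed 0.05), on counts, on unique counts, and with identical sequences summed. CPM use TMM-scaled library sizes. In a simulation of the fit on counts (1286 transcripts, 200 changed by a log2 fold change of 2), 81.5% of the changed transcripts were recovered. For shares, all 20 relabellings of the libraries gave an exact two-sided permutation p, which cannot go below 0.1. Copies were aligned to Rnu1a1 with Biopython 1.88, and figures drawn with matplotlib 3.10.9. Total counts per library were 454499 to 887460. For a copy at 0 in UD-P19, a floor of 3 counts over the UD-P19 libraries together was used to give a lower bound of its fold.

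The members and gene lists were chosen with earlier results of these data known. Named with values were the members that the selection rule names, every Rnu1 symbol, the copy with the highest total of each distinct sequence with at least 100 counts, every copy with at least 15 unique counts, and every tested copy not called or called lower. Gm23510 was named after its values were seen. Alternatives were other filters, scalings and tests (DESeq2 1.42.0, edgeR's exact test), other denominators, near-identical copies joined, and each library left out. Unique exact counts, the denominator without Rnu7 and leaving out libraries for the shares of b-type copies and of copies that differ after the Sm site were added after the data were seen.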

Additional observations from a re-analysis of the deposited data

How the results depend on the processing

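The number of U1-sized copies called was between 30 and 35 when each library was left out and between 31 and 33 under the other settings. On unique counts it was between 12 and 15, and for distinct sequences between 20 and 24, all higher in P19N. No paired analysis was possible because the groups share no replicate number. DESeq2 size factors moved the median log2 fold change over all transcripts from 0.21 to 0.05 and total-count scaling moved it to 0.34, and 33 copies were called with each of these scalings. Leaving out P19N replicate 4 brought that median to -0.04, the lowest, and leaving out UD-P19 replicate 2 to 0.60, the highest. The difference in the U1-sized share (40.2 percentage points) was 45.4 without Gm42418 in the denominator, and that on unique counts (0.642) was 1.21. The difference in the share of snRNA counts (42.1) was 28.4 without Rnu7 and 5.46 on unique counts, and that in the log2 ratio to U2-sized counts (1.72) was 2.46 on unique counts. With copies of at most 1 mismatch joined, Gm25890, Rnu1b2 and Gm22042 form 1 group whose share differed by -0.23 percentage points, where Gm25890 and Rnu1b2 alone differed by 1.42 and -1.41 and Gm22042 by -0.24. The cause of the shifts on unique counts was not tested. With each library left out, the difference ranged from -4.16 to 0.28 for the Gm26232 sequence, from -3.89 to 0.979 for the Rnu1a1 sequence and from -3.13 to 1.71 for the b-type copies, so that none of these has a settled direction. Of the 30 named copies, 26 were called. Over 443 alternatives of single copies, 8 calls were lost (Gm23330 under 7 and Gm25682 under 1), 2 were gained without UD-P19 replicate 2 (Gm25818 and Gm26505), and Gm26505, not called with all libraries, ranged from -0.14 (without UD-P19 replicate 3) to 1.73 (without UD-P19 replicate 2). The cause was not tested. Low counts limit the UD-P19 side, where most low-count copies had under 10 counts a library.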
